A study of Mus musculus with 2 samples.

Results

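The 32 genes described here encode receptors for neuropeptides that act in the hypothalamus, from the orexin, tachykinin, galanin, RFamide, bombesin, neuromedin U, neurotensin and PACAP systems to angiotensin and endothelin. They were chosen by gene symbol from the 32285 genes of the count matrix, and the rule uses no measured value, although it was set with earlier results of these data known. All 32 were found in the matrix, and in the gene annotation of GRCm38 11 of them overlap another gene. The study profiled nuclei of micro-dissected mouse arcuate nucleus (ARC), a hypothalamic region that controls feeding, by single-nucleus RNA sequencing. The mice were wild-type C57BL/6J males of 10 to 12 weeks with no treatment named, and their nuclei were gated on the neuronal antigen NeuN before droplet capture on the 10x Genomics platform. They were sequenced as 1 pooled gene expression library together with a hashtag library of the same barcodes. The matrix lists 2 hashtags, which are antibodies that tag the nuclei of a preparation before pooling, named ARC and PVH, and it does not expand the second abbreviation.

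Neuropeptide receptors are nearly all G protein-coupled receptors. A neuron releases a peptide that spreads beyond the synapse, and a neighbouring or distant neuron responds only if it makes the matching receptor, so the receptor genes of a neuron class set which peptides it can hear. Receptors coupled to Gq or Gs, such as those for orexin, neuromedin U and PACAP, mostly excite, whereas galanin acts through Galr1 by Gi and mostly inhibits. In the hypothalamus these systems are known for their part in feeding, arousal, water balance, stress and reproduction.

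After the filters 10170 of 11409 barcodes were kept, and the hashtags assigned 3767 nuclei to the ARC side and 3074 to the PVH side. The ARC side held 19491572 UMIs (unique molecular identifiers, each standing for 1 captured RNA molecule), with a median of 4827 per nucleus, and the PVH side 16731852, with a median of 5039. There is 1 preparation for each side and no replicate, so no test across samples was possible. A level is the summed UMI count of a gene in a group of nuclei, scaled to 1000000 UMIs of that group (CPM), and the brackets after a level, ratio or share hold 95% intervals that cover counting error only. Sim1, a transcription factor of paraventricular neurons, was at 10.6 CPM on the ARC side and 109 CPM on the PVH side, and the neuronal gene Snap25 was at 696 and 685 CPM. Agrp was at 174 and 152 CPM and Pomc at 164 and 90.3 CPM on the ARC and PVH sides. These side-wide levels alone are not read as AGRP or POMC neurons on either side. Agrp lay between 98.1 and 182 CPM in every neuron cluster outside the AGRP-like ones, which were at 268 and 296 CPM, and it was at 273 CPM in the non-neuronal cluster, where Pomc was at 216 CPM. Summed markers of the other cell types that a NeuN sort can let through were at 41.3 and 51.6 CPM for astrocytes, 117 and 82.8 CPM for tanycytes, 101 and 102 CPM for oligodendrocytes, and 115 and 99.8 CPM for microglia, in this order of sides. Markers of oligodendrocyte precursors, endothelial and mural cells were each at 8.47 CPM or less on both sides. Each side was clustered without the 32 genes, which gave 14 neuron clusters with 3737 nuclei and 1 non-neuronal cluster of 30 nuclei on the ARC side, and 15 neuron clusters on the PVH side. Clusters are numbered by size within a side and carry a name with "-like" only where the markers of exactly 1 class passed. On the ARC side 2 clusters were AGRP-like and 1 each was POMC-like, KNDy-like, SST-like, GHRH-like, VMH-like (ventromedial hypothalamus) and dopaminergic-like, and 6 had no name. On the PVH side 7 clusters passed for the Sim1 list of paraventricular neurons and are called Sim1-bearing, 1 each was dopaminergic-like, thalamic-like and VMH-like, and 5 had no name. Cluster 1 of each side also carried all 6 oligodendrocyte markers, summed at 288 CPM on the ARC side, where the other neuron clusters lay between 52.5 and 118 CPM, and at 291 CPM on the PVH side, where the others lay between 33.7 and 110.1 CPM. ARC-side cluster 1 also passed the oligodendrocyte precursor list and the Sim1 list, with Sim1 at 60.4 CPM and among its 10 leading genes, and PVH-side cluster 1 passed the astrocyte list and had Sim1 at 77.6 CPM. The part of these signals in the receptor levels of cluster 1 was not tested.

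The receptor genes were rare. Together they held 4731 UMIs on the ARC side, or 243 CPM (236 to 249.7), and 4846 UMIs on the PVH side, or 289.6 CPM (282 to 298). A UMI of at least 1 of them was found in 62.5% of ARC-side and 67.0% of PVH-side nuclei. After each nucleus was thinned to 1000 UMIs these shares were 20.6% and 24.3%. The median nucleus held 1 of the 32 genes on both sides, and the highest number in 1 nucleus was 6 on the ARC side and 7 on the PVH side. A UMI was found on the ARC side for 31 of the 32 genes and on the PVH side for all 32. The 4 genes with the most UMIs held 58.1% of the receptor UMIs on the ARC side and 53.9% on the PVH side. There were 18 genes with 50 UMIs or more on a side, and 14 below that on both.

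Of the 26 genes with at least 20 UMIs over both sides, 5 were at 2-fold or more on the PVH side (Galr1, Ednra, Agtr1a, Trhr and Npsr1), against 3.36% of the 18112 genes compared in the same way. In the other direction 2 were at 2-fold or more on the ARC side (Npffr2 and Brs3), against 2.68% of all genes. The counting interval of the ratio lay above 1 for 10 of the 26, against 12.9% of all genes, below 1 for 3, against 20.5% of all genes, and covered 1 for 13. The median ratio of PVH over ARC levels was 1.31 for the 26 receptor genes and 0.971 for all genes compared. A side's level averages over a different mix of neuron clusters, so a larger share of a neuron type and more RNA per nucleus of that type cannot be told apart in these ratios. With cluster 1 of each side left out, Grpr and Qrfpr also passed 2-fold on the PVH side, at log2 ratios of 1.4 and 1.01, and the other 7 kept their direction. The share of all genes without cluster 1 is not given. The 5 genes did not all stay at 2-fold under other settings. Ednra changed direction at a stricter hashtag quantile of 0.99 and after thinning, with log2 ratios of -0.21 and -0.12. Npsr1 stayed at 2-fold or more in 1 of 4 other settings. With levels averaged over nuclei the PVH-side count was 3, and the share of all genes is not given. The remaining 6 genes, Galr2, Galr3, Sctr, Prokr1, Npbwr1 and Prlhr, were too rare to compare.

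**Figure D1:**
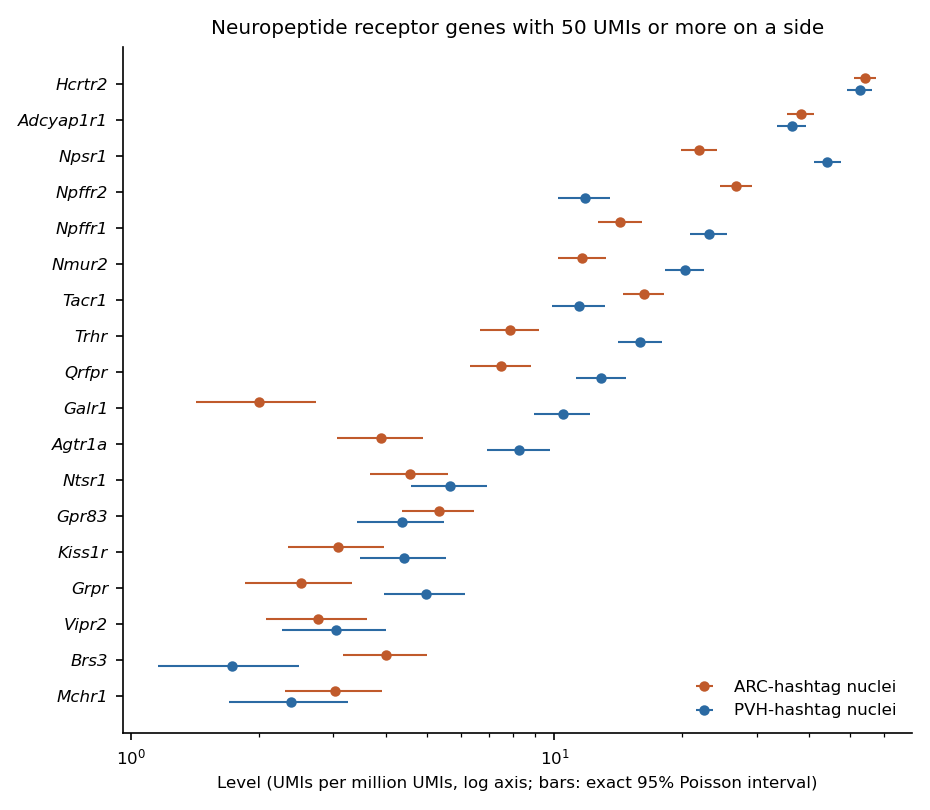
Levels of the 18 receptor genes with 50 UMIs or more on a side, in CPM on a log axis, for ARC-hashtag (orange) and PVH-hashtag (blue) nuclei, with exact 95% Poisson intervals as bars. Hcrtr2 and Adcyap1r1 lay close together on both sides, at 54.1 CPM and 52.6 CPM and at 38.2 CPM and 36.3 CPM, while Galr1 lay at 2.00 CPM and 10.5 CPM.

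**Figure D2:**
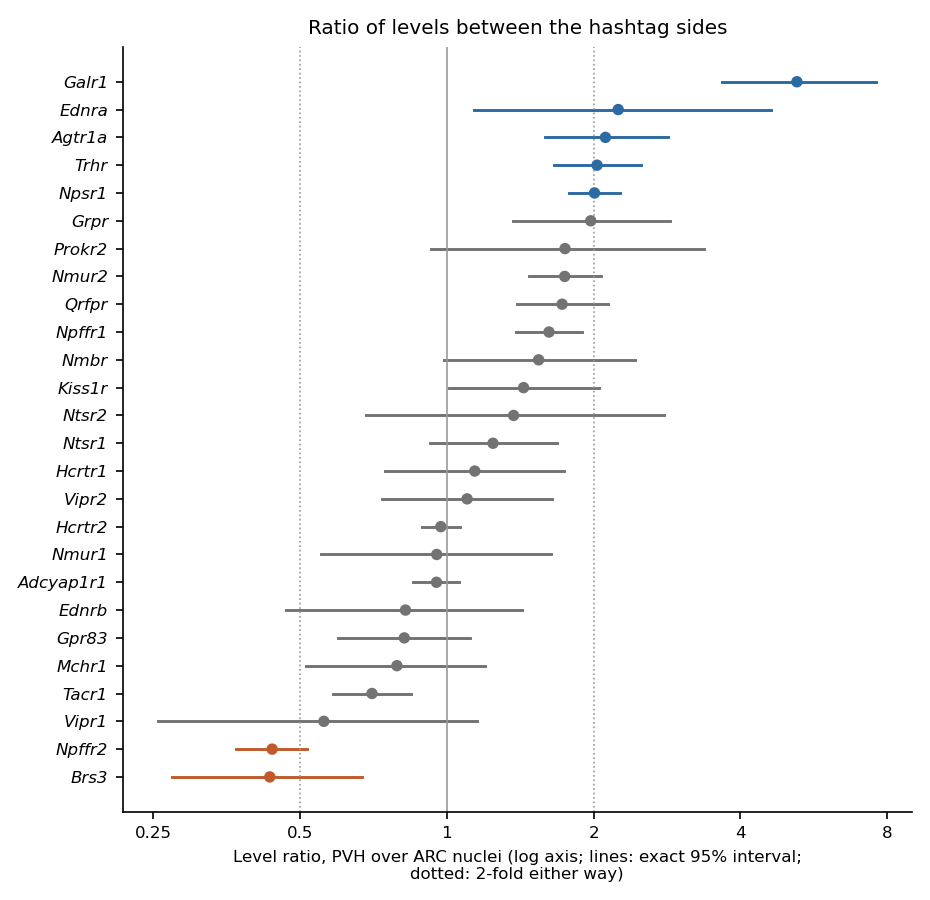
Ratio of the level in PVH-hashtag over ARC-hashtag nuclei for the 26 receptor genes compared, on a log axis, with exact 95% intervals as lines and 2-fold differences as dotted lines. Points at 2-fold or more are blue where the PVH side was higher and orange where the ARC side was higher, and 13 of the 26 intervals cover 1.

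Within a side the receptor genes were spread unevenly over neuron clusters. On the ARC side 16 of the 22 genes with at least 20 UMIs in neurons had a cluster at 2-fold or more of the other neurons with at least 10 UMIs, against 19.6% of all genes under the same rule. In PVH-side nuclei, 16 of 25 had such a cluster, against 20% of all genes. After thinning to 1000 UMIs the counts were 5 and 9, and with a minimum of 20 UMIs in the cluster they were 10 and 11. There were 14 genes with such a cluster on both sides and 18 on at least 1. Shares of all genes are not given for thinning, for the higher minimum or for this overlap. These counts are therefore not read against a background. The rule takes the highest of many clusters, and the clusters were made from other genes of the same nuclei, so these counts describe the clusters and are no test.

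The RFamide receptors include Npffr1 and Npffr2, which bind peptides from the Npvf and Npff genes, Qrfpr, the receptor for the feeding peptide QRFP, and Kiss1r, the kisspeptin receptor. Npffr2 (chromosome 5, 89527429 to 89583740 of GRCm38, plus strand) was at 26.9 CPM (24.6 to 29.3) on the ARC side and 11.8 CPM (10.2 to 13.5) on the PVH side, a ratio of PVH over ARC of 0.438 (0.37 to 0.517). It stood highest in the AGRP-like cluster 2, whose neurons make the hunger peptides AgRP and NPY, at 96.8 CPM (84.6 to 110.4) on 224 UMIs. That was 5.57-fold (4.66 to 6.65) the level of the other ARC-side neurons and 43.0% of the neurons' Npffr2 UMIs. A Npffr2 UMI was found in 38.6% of these nuclei and in 1.90% of the KNDy-like cluster 9, which had the lowest level at 3.82 CPM (1.04 to 9.77), and median depths there were 5134 and 4583 UMIs. The other AGRP-like cluster, cluster 3, followed at 46.6 CPM (36.9 to 57.9), and the unnamed GABAergic cluster 5 was at 34.7 CPM (25.3 to 46.5), and the intervals of clusters 3 and 5 overlap. Within PVH-side neurons the highest level was 28.7 CPM (21.2 to 38.1) in cluster 3, led by Lef1, Hmx2 and Hmx3, and the levels ranged from 6.27 to 28.7 CPM.

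Npffr1 (chromosome 10, 61595492 to 61628565, plus strand) went the other way between the sides, at 14.3 CPM (12.7 to 16.1) and 23.2 CPM (20.9 to 25.6), a ratio of 1.62 (1.39 to 1.90). In ARC-side nuclei, it too stood highest in the AGRP-like cluster 2, at 35.0 CPM (27.8 to 43.5), with the VMH-like cluster 11 at 28.4 CPM (19.3 to 40.3) and cluster 8 at 23.8 CPM (16.1 to 34.0), and these intervals overlap. On the PVH side it was highest in the Sim1-bearing cluster 14 at 57.2 CPM (38.9 to 81.2), in the GABAergic cluster 2 at 48.9 CPM (39.2 to 60.2) and in the Sim1-bearing cluster 4 at 48.1 CPM (37.5 to 60.8), which also overlap. Of the 249 ARC-side nuclei with a Npffr1 UMI 16.9% also had Npffr2, where 10.99% of all ARC-side nuclei did. On the PVH side 25 of 322 did, or 7.76%, where 5.79% of all did. Both genes stood highest in cluster 2 of the ARC side. Whether they share nuclei beyond shared clusters and depth was not tested.

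Qrfpr (chromosome 3, 36179424 to 36222313, minus strand) was at 7.49 CPM (6.32 to 8.81) on the ARC side and 12.9 CPM (11.2 to 14.8) on the PVH side, a ratio of 1.72 (1.39 to 2.14). Its highest level was in the Sim1-bearing PVH-side cluster 8, at 58.2 CPM (44.9 to 74.2) and 6.02-fold (4.43 to 8.10) the other neurons, followed by the GABAergic cluster 2 at 34.4 CPM (26.4 to 44.2) and the dopaminergic-like cluster 9 at 25.1 CPM (15.9 to 37.7). No UMI was found in cluster 11 among 107 nuclei, which allows up to 3.76 CPM. Within ARC-side neurons levels ran from 1.91 to 18.3 CPM, highest in the unnamed glutamatergic cluster 8 and next in cluster 5 at 14.7 CPM (8.83 to 22.9). Kiss1r, through which kisspeptin drives the neurons that make gonadotropin-releasing hormone, was low throughout, at 3.08 CPM (2.35 to 3.96) and 4.42 CPM (3.47 to 5.55). Its highest level was 10.4 CPM (5.56 to 17.9) in the Sim1-bearing PVH-side cluster 6, on 13 UMIs, and the 60 UMIs of the ARC side lay in 60 different nuclei. Kiss1r overlaps R3hdm4 on the opposite strand, and the labels and methods do not say whether counting used strand.

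The orexin receptors bind the peptides of the lateral hypothalamic Hcrt neurons, which sustain wakefulness. Hcrtr2 (chromosome 9, 76225880 to 76323856, minus strand) had the most UMIs of the 32 genes on both sides, 1055 and 880, and its levels hardly differed between them, at 54.1 CPM (50.9 to 57.5) and 52.6 CPM (49.2 to 56.2), a ratio of 0.972 (0.888 to 1.06). Within the ARC side it differed widely. It was highest in the GABAergic cluster 5, led by Dock5, Tmem215 and Sgcd, at 137 CPM (118 to 159), and in the SST-like cluster 7 at 118 CPM (100.04 to 139), whose intervals overlap. The AGRP-like clusters were lowest, cluster 2 at 5.19 CPM (2.68 to 9.06) and cluster 3 at 9.89 CPM (5.76 to 15.8), while the POMC-like cluster 4, of neurons that make the appetite-suppressing melanocortins, was at 70.5 CPM (58.3 to 84.5). Over both AGRP-like clusters Hcrtr2 was at 7.19 CPM against 66.7 CPM, a ratio of 0.108 (0.0719 to 0.156) against the other ARC-side neurons. A Hcrtr2 UMI was found in 35.6% of cluster 5 and 2.69% of cluster 2, and after thinning in 12.9% and 0.733%.

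In PVH-side nuclei, Hcrtr2 was concentrated in Sim1-bearing cluster 4, at 200.1 CPM (178 to 224), which was 5.19-fold (4.49 to 5.98) the other neurons and 33.1% of their Hcrtr2 UMIs. There 45.3% of nuclei had a UMI. Sim1-bearing cluster 8 followed at 112 CPM (93.1 to 133). Other Sim1-bearing clusters were low, with cluster 11 at 10.0 CPM (4.33 to 19.7) and cluster 14 at 3.69 CPM (0.447 to 13.3), where 2.27% of nuclei had a UMI. Hcrtr1, the second orexin receptor, was at 2.46 CPM (1.82 to 3.27) and 2.81 CPM (2.06 to 3.74), and no cluster passed the 2-fold rule with 10 UMIs on either side. The ARC-side VMH-like cluster 11 fell just short of that minimum, on 9 UMIs. There Hcrtr1 was at 8.25 CPM (3.77 to 15.7), 3.87-fold (1.65 to 8.13) the other neurons. Of the nuclei with a Hcrtr1 UMI, 9 of 47 on the ARC side (19.1%) and 10 of 46 on the PVH side (21.7%) also had Hcrtr2, which was found in 17.6% and 16.6% of all nuclei.

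Tacr1 (chromosome 6, 82402334 to 82560104, plus strand) encodes the neurokinin receptor for substance P. It was at 16.3 CPM (14.5 to 18.2) on the ARC side and 11.4 CPM (9.85 to 13.2) on the PVH side, a ratio of 0.702 (0.583 to 0.843). On the ARC side it stood highest in the SST-like cluster 7, at 86.7 CPM (71.2 to 104) on 110 UMIs, 7.63-fold (6.00 to 9.66) the other neurons. It was among the 10 leading genes of that cluster, beside Unc13c, Pth2r and Tmem26, although it had been left out of the clustering. The GHRH-like cluster 10, which carries Chat, was second at 37.9 CPM (27.2 to 51.4), and cluster 5 was lowest at 1.54 CPM (0.187 to 5.58). A Tacr1 UMI was found in 28.1% of cluster 7 and 0.719% of cluster 5. Within PVH-side neurons it was highest in Sim1-bearing cluster 8 at 37.6 CPM (27.1 to 50.8), with no UMI in the 300 nuclei of Sim1-bearing cluster 4, which allows up to 2.06 CPM. Clusters 4 and 8 of the PVH side thus both stood high in Hcrtr2 and lay apart in Tacr1.

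The bombesin family has a receptor for neuromedin B (Nmbr), a receptor for gastrin-releasing peptide (Grpr) and Brs3, an orphan receptor with no known natural peptide that is known for its part in energy balance. Brs3 (chromosome X, 57043074 to 57048758, plus strand) was at 4.00 CPM (3.16 to 4.99) on the ARC side and 1.73 CPM (1.16 to 2.49) on the PVH side, a ratio of 0.433 (0.273 to 0.671). The KNDy-like cluster 9, of neurons that make kisspeptin, neurokinin B and dynorphin, held 29 of the 78 UMIs, at 27.7 CPM (18.5 to 39.7) and 10.4-fold (6.31 to 16.7) the other neurons. The next clusters were the SST-like cluster 7 at 7.88 CPM (3.78 to 14.5) and the POMC-like cluster 4 at 7.23 CPM (3.73 to 12.6), and 7 of the 14 neuron clusters had no Brs3 UMI. A UMI was found in 12.4% of cluster 9 and in 0 of the 278 nuclei of cluster 5, which allows up to 2.32 CPM. Without cluster 1 of each side the log2 ratio of PVH over ARC moved from -1.21 to -1.82.

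Grpr was at 2.51 CPM (1.86 to 3.32) and 4.96 CPM (3.95 to 6.15), a ratio of 1.97 (1.37 to 2.87). On the PVH side the Sim1-bearing clusters 10 and 8 were highest, at 20.4 CPM (11.4 to 33.7) and 19.7 CPM (12.3 to 29.8), and over all 7 Sim1-bearing clusters it was at 9.11 CPM against 2.34 CPM, a ratio of 3.90 (2.39 to 6.55). Nmbr was at 1.90 CPM (1.34 to 2.62) and 2.93 CPM (2.17 to 3.87), with its highest level in the thalamic-like PVH-side cluster 13 at 18.9 CPM (9.41 to 33.7) and the dopaminergic-like cluster 9 at 10.9 CPM (5.24 to 20.1). In ARC-side nuclei, the clusters that passed the rule for both genes were cluster 1, on 13 and 10 UMIs, the cluster that carried oligodendrocyte and Sim1-list markers. Levels on fewer than 10 UMIs were higher elsewhere, with Grpr at 9.60 CPM (4.39 to 18.2) in the dopaminergic-like cluster 13 and 6.68 CPM (2.69 to 13.8) in the KNDy-like cluster 9, against 4.67 CPM (2.49 to 7.99) in cluster 1, and Nmbr at 5.50 CPM (2.02 to 12.0) in the VMH-like cluster 11, against 3.59 CPM (1.72 to 6.61).

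Nmur2 (chromosome 11, 56024987 to 56041010, minus strand) is the brain receptor for neuromedin U and neuromedin S, peptides that reduce feeding. It was at 11.6 CPM (10.2 to 13.3) on the ARC side and 20.3 CPM (18.2 to 22.6) on the PVH side, a ratio of 1.74 (1.47 to 2.07). With the stricter hashtag quantile of 0.99 the log2 ratio moved from 0.80 to 0.08. Its highest level was in Sim1-bearing PVH-side cluster 8, at 79.7 CPM (64.0 to 98.0), 4.96-fold (3.85 to 6.34) the other neurons, with a UMI in 33.7% of nuclei. It was lowest in Sim1-bearing cluster 11, at 1.25 CPM (0.0317 to 6.98), with a UMI in 0.935% of nuclei. The other Sim1-bearing clusters were spread between these, with cluster 6 at 24.9 CPM, cluster 12 at 6.86 CPM, cluster 4 at 4.81 CPM, cluster 14 at 3.69 CPM and cluster 10 at 2.72 CPM. Within ARC-side neurons Nmur2 was highest in the VMH-like cluster 11 at 33.9 CPM (23.9 to 46.7), then the GHRH-like cluster 10 at 25.9 CPM (17.2 to 37.4) and the GABAergic cluster 6 at 21.4 CPM (14.1 to 31.2), and lowest in cluster 8 at 0.794 CPM (0.0201 to 4.42). Nmur1, the peripheral receptor of the same peptides, had 33 and 27 UMIs and no cluster that passed the rule.

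Nmur2, Qrfpr, Tacr1 and Grpr shared PVH-side cluster 8 as the cluster with their highest ratio to the other neurons, with the transcription factor gene Sim2 first among the cluster's leading genes. Trhr and Hcrtr2 were also at 2-fold or more there, 6 of the 25 genes tested against 2.92% of all genes, and the summed level of the 32 genes was highest of all PVH-side clusters at 476 CPM (437 to 518). The promoters of Nmur2 and Qrfpr, the genes of this group with the most UMIs in the cluster, are shown because these genes stood high together in 1 cluster. They are the 250 bases before the RefSeq start site, from RefSeq on GRCm38.p6, both for genes on the minus strand and written 5′ to 3′. The Nmur2 promoter covers chr11:56040988-56041237 and the Qrfpr promoter chr3:36222276-36222525.
Nmur2: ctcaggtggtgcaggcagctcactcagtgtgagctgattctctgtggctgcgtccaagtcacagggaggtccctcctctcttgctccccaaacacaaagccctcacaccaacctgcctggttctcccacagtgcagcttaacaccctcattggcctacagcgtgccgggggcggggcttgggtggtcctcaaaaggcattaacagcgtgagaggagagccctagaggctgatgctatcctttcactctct
Qrfpr: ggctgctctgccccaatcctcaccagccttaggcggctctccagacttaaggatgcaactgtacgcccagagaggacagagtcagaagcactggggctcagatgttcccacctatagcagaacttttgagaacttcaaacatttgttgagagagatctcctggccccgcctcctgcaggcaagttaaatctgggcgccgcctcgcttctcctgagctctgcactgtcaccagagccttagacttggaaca
The motif TACGTG, the core element bound by SIM proteins with their partner, was searched on both strands, where its reverse reads CACGTA. It was absent from all 4 promoters of the group, so neither sequence holds capitals, and it was present in 2.72% of the 32851 promoter windows of this length.

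The galanin receptors were represented mainly by Galr1, which inhibits neurons when galanin binds. Galr1 had the largest difference between sides of the 26 genes compared, at 2.00 CPM (1.42 to 2.74) on the ARC side on 39 UMIs and 10.5 CPM (8.97 to 12.1) on the PVH side on 175 UMIs, a ratio of 5.23 (3.68 to 7.60). The log2 ratio was 2.39 and stayed between 2.06 and 2.73 under the other settings, and it was 3.27 without cluster 1 of each side, since ARC-side cluster 1 held 20 of the 39 ARC-side UMIs. In PVH-side nuclei, Galr1 was highest in Sim1-bearing clusters 12 and 14, at 48.0 CPM (31.9 to 69.4) and 36.9 CPM (22.5 to 57.0), followed by cluster 3 at 23.9 CPM (17.1 to 32.6). Sim1-bearing clusters 6 and 11 had no UMI, in 198 and 107 nuclei, which allows up to 2.41 and 3.76 CPM. On the ARC side 7 of the 14 neuron clusters had a UMI, and the AGRP-like clusters had 1 UMI between them. Galr2 had 7 UMIs on each side, 4 of the ARC-side ones in the KNDy-like cluster 9, and Galr3 had 5 and 6.

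Trhr (chromosome 15, 44196135 to 44235912, plus strand) is the receptor for thyrotropin-releasing hormone. It was at 7.85 CPM (6.66 to 9.20) on the ARC side and 16.0 CPM (14.1 to 18.0) on the PVH side, a ratio of 2.03 (1.66 to 2.50) that stayed at 2-fold or more in 3 of 4 other settings. In ARC-side nuclei, it was highest in cluster 14, led by Cgnl1 and Abca6, at 32.3 CPM (20.5 to 48.5), then in cluster 8 at 27.8 CPM (19.3 to 38.6) and the dopaminergic-like cluster 13 at 17.1 CPM (9.76 to 27.7). Gpr83, reported as a receptor for the peptide PEN, was also highest in cluster 14 at 26.7 CPM (16.1 to 41.7) with cluster 13 second at 17.1 CPM (9.76 to 27.7), and its side levels were 5.34 CPM and 4.36 CPM. Clusters 13 and 14 are GABAergic and carried Th, the rate-limiting enzyme of dopamine synthesis, at 19.7 CPM in cluster 14 and 73.6 CPM in cluster 13. In the AGRP-like clusters Trhr was at 1.74 CPM against 9.50 CPM, a ratio of 0.183 (0.0722 to 0.386) against the other neurons. Within PVH-side neurons Trhr was highest in cluster 3 at 34.7 CPM (26.3 to 44.8) and Sim1-bearing cluster 8 at 34.0 CPM (24.1 to 46.7), and lowest in Sim1-bearing cluster 11 at 1.25 CPM (0.0317 to 6.98).

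Npsr1 (chromosome 9, 24097996 to 24316398, plus strand) encodes the receptor for neuropeptide S, a peptide of arousal. It was at 22.0 CPM (19.9 to 24.1) and 44.1 CPM (41.0 to 47.4), a ratio of 2.01 (1.78 to 2.27) that stayed at 2-fold or more in 1 of 4 other settings, where log2 ratios lay between 0.96 and 1.27. On the PVH side the thalamic-like cluster 13 was highest at 190.3 CPM (157 to 229), followed by cluster 3 at 106 CPM (91.4 to 123), Sim1-bearing cluster 6 at 90.0 CPM (74.1 to 108) and the GABAergic cluster 5 at 75.8 CPM (61.8 to 92.0). No UMI was found in the 107 nuclei of Sim1-bearing cluster 11. Within ARC-side neurons it was highest in cluster 8 at 60.3 CPM (47.5 to 75.5), cluster 1 at 54.99 CPM (46.6 to 64.4), the SST-like cluster 7 at 41.8 CPM (31.3 to 54.6) and cluster 12 at 38.9 CPM (27.6 to 53.5), whose intervals overlap, and it was at 2.13 CPM in the dopaminergic-like cluster 13. Npsr1 UMIs were bunched in few nuclei. A PVH-side nucleus with a Npsr1 UMI held 2.36 of them on average, where the median over the 16 receptor genes with 50 UMIs on that side was 1.23. There were 42 PVH-side nuclei with 5 or more, which held 40.4% of the side's 738 Npsr1 UMIs, and 1 nucleus held 22. In cluster 13, 29 of 96 nuclei held all 111 UMIs. The 218 kb locus is overlapped on the opposite strand by Gm47674 and Gm15600.

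Agtr1a (chromosome 13, 30336441 to 30382867, plus strand) encodes the type 1a receptor for angiotensin II, which acts in the brain on thirst, blood pressure and stress hormones. It was at 3.90 CPM (3.07 to 4.88) on the ARC side and 8.25 CPM (6.93 to 9.74) on the PVH side, a ratio of 2.12 (1.59 to 2.84) that stayed at 2-fold or more in 3 of 4 other settings. Sim1-bearing PVH-side cluster 4 held 86 of the 138 UMIs, or 62.3%, at 59.1 CPM (47.3 to 73.0) and 17.4-fold (12.2 to 25.0) the other neurons, the largest ratio of a leading cluster among the genes with 20 UMIs or more in a side's neurons. A UMI was found in 22% of its nuclei and in 0 of the 243 nuclei of cluster 5, which allows up to 2.23 CPM. Agtr1a was among the cluster's 10 leading genes, beside Scgn, Ahnak2 and Chil1. Sim1-bearing cluster 12 was second at 25.7 CPM (14.4 to 42.5), and the other clusters were at 8.06 CPM or less. On the ARC side levels were low, from 0 to 12.3 CPM, with cluster 12 at 12.3 CPM (6.35 to 21.5) and the AGRP-like cluster 3 at 8.73 CPM (4.89 to 14.4). Agtr1a is overlapped on the same strand by Gm48161.

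The endothelin receptors, known from vessels and glia, were near the floor in neurons. Ednrb had 34 UMIs on the ARC side, and 15 of them were in the 30 nuclei of the non-neuronal cluster, at 171 CPM (95.6 to 282). This cluster had 5 of 6 astrocyte markers, summed at 2380.0 CPM, where the ARC-side neuron clusters lay at 54.8 CPM or less. Ntsr2, a neurotensin receptor of glia, was at 56.9 CPM (18.5 to 133) there on 5 UMIs, and both ARC-side Sctr UMIs were there too. Nmur2 was at 68.3 CPM (25.1 to 149) in the same cluster on 6 UMIs. Ednra had 14 and 27 UMIs, a ratio of 2.25 (1.14 to 4.64) that turned to the other direction under 2 settings, with log2 ratios of -0.21 at a hashtag quantile of 0.99 and -0.12 after thinning.

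The PACAP and VIP receptors couple to Gs. Adcyap1r1 (chromosome 6, 55451978 to 55501451, plus strand), the receptor selective for PACAP, varied little, at 38.2 CPM (35.5 to 41.0) and 36.3 CPM (33.5 to 39.3), a ratio of 0.952 (0.854 to 1.06). It ranged from 27.7 to 53.6 CPM over the ARC-side neuron clusters and from 19.1 to 47.2 CPM over the PVH-side ones, and no cluster reached 2-fold. It was at 34.2 CPM (7.05 to 99.8) in the non-neuronal cluster on 3 UMIs. Vipr2, which binds VIP and PACAP alike, was at 2.77 CPM (2.08 to 3.61) and 3.05 CPM (2.27 to 4.01), and on the PVH side it stood highest in the thalamic-like cluster 13 at 22.3 CPM (11.9 to 38.1), 9.47-fold (4.63 to 18.2) the other neurons. Vipr1 had 25 UMIs on the ARC side, of which 16 lay in the AGRP-like clusters, at 3.97 CPM against 0.585 CPM, a ratio of 6.78 (2.82 to 17.4) against the other neurons, and 12 on the PVH side. In Vipr1 the direction between sides also turned, from a log2 ratio of -0.84 to as high as 1.03 after thinning.

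Ntsr1, the neuronal receptor for neurotensin, was at 4.57 CPM (3.67 to 5.62) and 5.68 CPM (4.59 to 6.94). In ARC-side nuclei, it was highest in the POMC-like cluster 4 at 9.64 CPM (5.51 to 15.7) and cluster 8 at 8.73 CPM (4.36 to 15.6), and it was at 0.992 CPM against 5.53 CPM, a ratio of 0.179 (0.0478 to 0.477) in the AGRP-like clusters against the other neurons. In PVH-side nuclei, it was higher outside the Sim1-bearing clusters, at 1.85 CPM in them and 8.09 CPM in the other neurons. Mchr1, the receptor for melanin-concentrating hormone, was at 3.03 CPM (2.30 to 3.90) and 2.39 CPM (1.71 to 3.26), with no cluster that passed the rule. Prokr2 had 18 and 27 UMIs and Prokr1 7 and 1, with 6 of the 7 ARC-side Prokr1 UMIs in the POMC-like cluster 4. Npbwr1 had 3 and 10 UMIs and Sctr 2 and 3. Prlhr, the receptor for prolactin-releasing peptide, had 0 UMIs on the ARC side, which allows up to 0.154 CPM, and 3 on the PVH side.

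**Figure D3:**
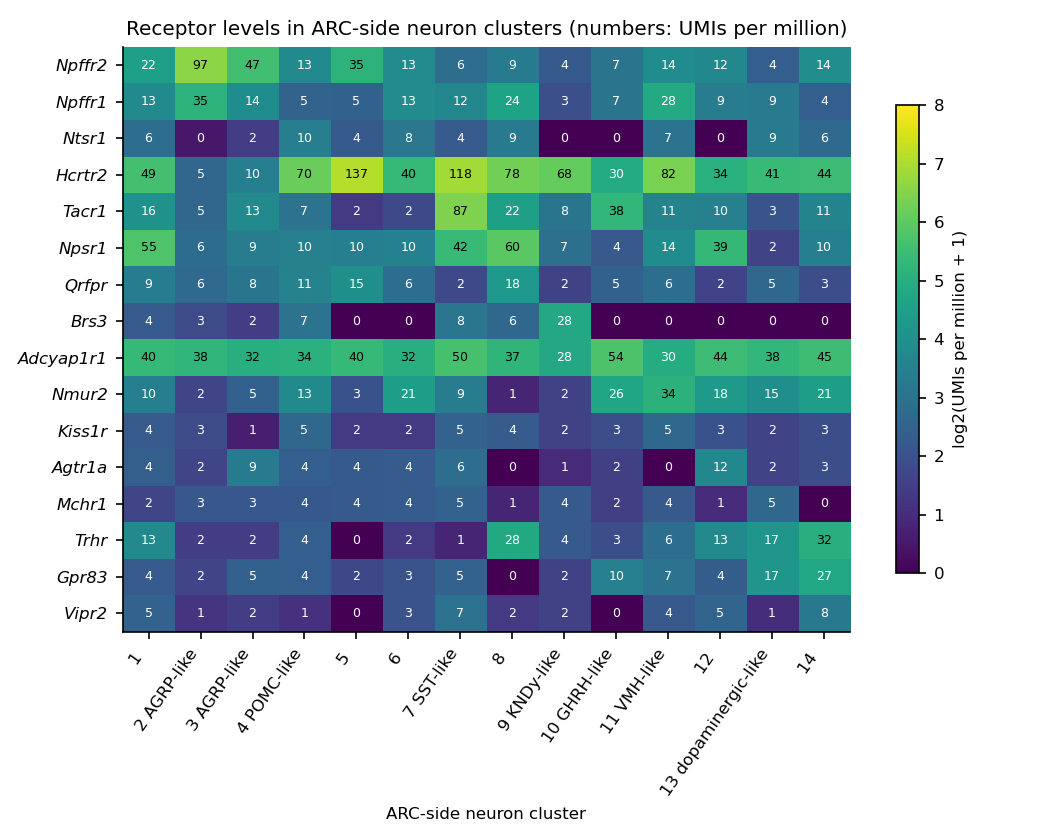
Levels of the 16 receptor genes with 50 UMIs or more in ARC-side neurons, across the 14 neuron clusters, with the CPM printed in each cell and coloured as log2(CPM + 1). Npffr2 peaked in AGRP-like cluster 2 at 96.8 CPM, Tacr1 in SST-like cluster 7 at 86.7 CPM and Brs3 in KNDy-like cluster 9 at 27.7 CPM, while Adcyap1r1 stayed between 27.7 and 53.6 CPM.

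**Figure D4:**
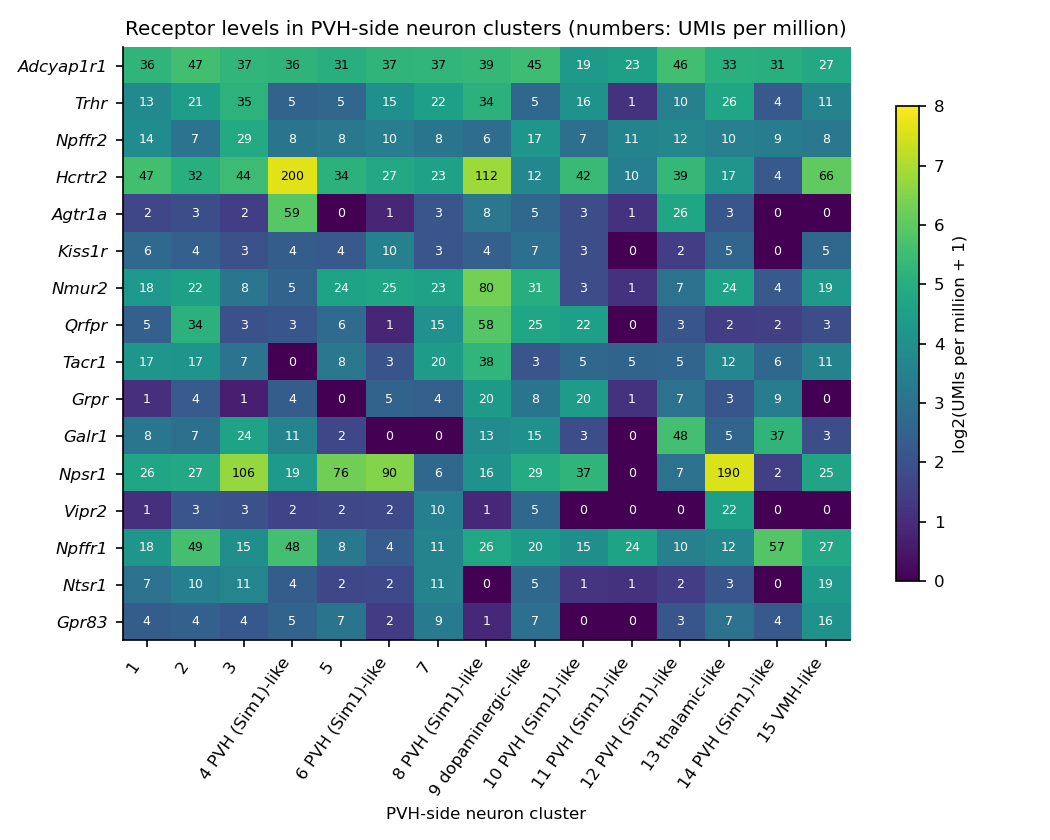
Levels of the 16 receptor genes with 50 UMIs or more in PVH-side neurons, across the 15 neuron clusters, drawn as for the ARC side. Hcrtr2 and Agtr1a peaked in Sim1-bearing cluster 4, at 200.1 CPM and 59.1 CPM, Nmur2 and Qrfpr in Sim1-bearing cluster 8, at 79.7 CPM and 58.2 CPM, and Npsr1 in thalamic-like cluster 13 at 190.3 CPM.

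Receptor levels were also read by neuron class, first for the AGRP-like clusters. Over their 745 nuclei Npffr2, Npffr1 and Vipr1 were at 2-fold or more of the other ARC-side neurons, 3 of the 22 genes tested against 3.06% of all genes. For Npffr1 this rests on cluster 2, at 35.0 CPM, since 81 of the class's 105 UMIs were there. The other direction held 10 of the 22, against 7.77% of all genes: Galr1, Hcrtr2, Ntsr1, Trhr, Nmur2, Grpr, Npsr1, Tacr1, Vipr2 and Brs3. Nmur2 was at 3.22 CPM against 13.5 CPM, a ratio of 0.238 (0.125 to 0.417), and Npsr1 at 7.44 CPM against 25.9 CPM, a ratio of 0.287 (0.191 to 0.417). In the AGRP-like class the intervals reach 1 for Vipr2, at 0.477 (0.167 to 1.12), and Brs3, at 0.497 (0.218 to 1.00). Galr1 and Grpr rest on 1 and 3 UMIs in the AGRP-like class. In the SST-like cluster 7 Tacr1, Hcrtr2, Brs3 and Npsr1 were at 2-fold or more, 4 of 22 against 1.59% of all genes, and the summed level of the 32 genes was the highest of the ARC-side clusters at 384 CPM (350.4 to 419). The lowest ARC-side sums were 175 CPM (153 to 200.1) in cluster 6 and 176 CPM (157 to 197) in the AGRP-like cluster 3, and these intervals overlap. Cluster 8, led by Smoc2 and Pdzrn3, also had 4, namely Trhr, Npsr1, Qrfpr and Ntsr1, against 1.46% of all genes, as did cluster 1, with Galr1, Npsr1, Grpr and Nmbr, against 2.4%. The GHRH-like cluster 10 had 3, which were Tacr1, Nmur2 and Gpr83, against 2.13%. The KNDy-like and POMC-like clusters had 1 gene each at 2-fold or more, Brs3 and Ntsr1, against 2.62% and 2.03% of all genes.

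The 7 Sim1-bearing PVH-side clusters, with 1106 nuclei, differed among themselves. Over all of them Agtr1a was at 17.6 CPM against 2.34 CPM, a ratio of 7.53 (4.81 to 12.2) against the other PVH-side neurons, and Hcrtr2 at 79.4 CPM against 35.7 CPM, a ratio of 2.23 (1.94 to 2.55). With Grpr and Nmur1 these made 4 of 25 genes at 2-fold or more, against 3.3% of all genes. Ntsr1, Vipr2, Brs3 and Gpr83 were at 2-fold or more in the other direction, against 4.42%. The class ratio of Agtr1a rests largely on cluster 4, which held 86 of the side's 138 UMIs. That of Hcrtr2 rests largely on clusters 4 and 8, at 200.1 and 112 CPM, while cluster 14 was at 3.69 CPM. The summed level of the 32 genes ran from 99.0 CPM (78.3 to 123) in cluster 11 to 476 CPM (437 to 518) in cluster 8, the lowest and the highest of the whole side. Cluster 11 had the deepest nuclei, with a median of 7088 UMIs, and no receptor gene at 2-fold or more, against 3.03% of all genes. Its Npffr1 level was 23.8 CPM (14.3 to 37.2) and its Adcyap1r1 level 22.5 CPM (13.4 to 35.6). In cluster 4 Agtr1a, Hcrtr2 and Npffr1 were at 2-fold or more, against 2.34% of all genes. Cluster 12 had Galr1 and Agtr1a, against 1.54%, and cluster 14 Galr1 and Npffr1, against 2.01%. Kiss1r and Npsr1 were the genes of cluster 6, against 1.53%, and Grpr that of cluster 10, against 1.26%. The thalamic-like cluster 13, outside this class, had Vipr2, Nmbr and Npsr1 at 2-fold or more, 3 of 25 against 2.26% of all genes. Cluster 3, led by Lef1, Hmx3 and Hmx2, had 5, which were Npffr2, Npsr1, Galr1, Trhr and Ntsr1, against 1.78%.

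**Figure D5:**
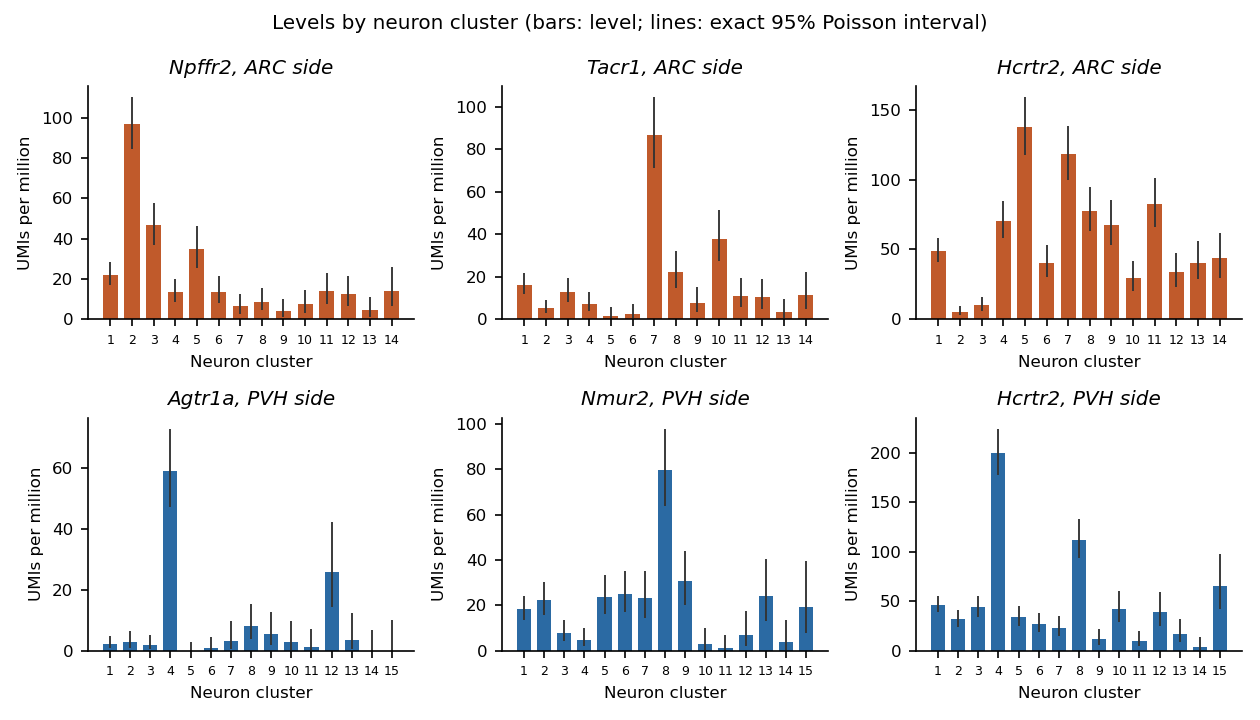
Levels of Npffr2, Tacr1 and Hcrtr2 over the ARC-side neuron clusters (orange) and of Agtr1a, Nmur2 and Hcrtr2 over the PVH-side ones (blue), in CPM from 0, with exact 95% Poisson intervals as lines. The interval of the highest cluster lies above that of each other cluster for Npffr2 (96.8 CPM (84.6 to 110.4)), Tacr1 (86.7 CPM (71.2 to 104)), Agtr1a (59.1 CPM (47.3 to 73.0)), Nmur2 (79.7 CPM (64.0 to 98.0)) and PVH-side Hcrtr2 (200.1 CPM (178 to 224)), but not for ARC-side Hcrtr2, where clusters 5 and 7 overlap.

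Clusters were also pooled by transmitter. Within ARC-side neurons 5 of 22 receptor genes were at 2-fold or more in the 5 glutamatergic clusters (1482 nuclei) over the 9 GABAergic clusters (2255 nuclei), against 3.35% of all genes, and 2 in the other direction, against 2.37%. Brs3 was at 7.52 against 1.64 CPM, a ratio of 4.58 (2.69 to 8.13) in glutamatergic over GABAergic clusters and Npsr1 at 34.2 against 13.8 CPM, a ratio of 2.47 (2.02 to 3.02). Npffr2 and Vipr1 were the genes higher in GABAergic clusters, with Npffr2 at 14.4 against 35.3 CPM, a ratio of 0.408 (0.329 to 0.504). Both rest largely on the 2 AGRP-like clusters, which are GABAergic. These held 304 of the 408 Npffr2 UMIs and 16 of the 21 Vipr1 UMIs of the GABAergic clusters. Ratios without them are not given. Within PVH-side neurons 6 of 25 were at 2-fold or more in the 11 glutamatergic clusters, against 4.22% of all genes, among them Agtr1a at 10.6 against 2.62 CPM, a ratio of 4.06 (2.29 to 7.84) and Hcrtr2 at 63.3 against 27.2 CPM, a ratio of 2.33 (1.94 to 2.82). Qrfpr alone was at 2-fold or more in the 4 GABAergic clusters, at 9.27 against 21.5 CPM, a ratio of 0.43 (0.327 to 0.567), against 1.98% of all genes, and its single highest cluster was nevertheless the glutamatergic cluster 8. ARC-side cluster 1 and PVH-side cluster 3 were close to the line between the groups, with Slc17a6 at 46.7 and 55.6 CPM and Slc32a1 at 38.8 and 46.1 CPM. Without these and PVH-side cluster 1, an alternative chosen after seeing the data, the ARC side had 2 of 21 genes at 2-fold or more in glutamatergic clusters (Brs3 and Ntsr1, against 3.08% of all genes) and 3 in GABAergic ones (Npffr2, Vipr1 and Agtr1a, against 3.57%), and Npsr1 was at 22.7 against 13.8 CPM, a ratio of 1.64. The PVH side then had 5 of 21 in glutamatergic clusters (Agtr1a, Hcrtr2, Grpr, Nmur1 and Prokr2, against 4.35%), and Ntsr1 in place of Qrfpr in GABAergic ones (against 3.12%). The median ratio of glutamatergic over GABAergic levels was 1.24 for the receptor genes and 0.974 for all genes on the ARC side, and 1.27 and 1.00 on the PVH side.

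Levels of different genes were also set side by side per length, as a description only, and the order then depends on which length is used. Division by length is not a required correction for UMI counts, and without it Hcrtr2 was highest on both sides. Per kilobase of exons Npffr2 was highest on the ARC side at 16.4 CPM, followed by Hcrtr2 at 8.78, Adcyap1r1 at 5.78 and Npsr1 at 5.56. Per kilobase of the whole gene, introns included, Mchr1 came first at 0.873 CPM, before Adcyap1r1 at 0.772, Nmur2 at 0.727 and Brs3 at 0.704, and Npsr1 was at 0.101. On the PVH side the highest per kilobase of exons was Npsr1 at 11.2 CPM and the highest per kilobase of gene Nmur2 at 1.27. Whether intron reads were counted is not stated by the labels or methods.

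The peptide genes that make the ligands of these receptors were looked at as a list of 28, of which 17 had 20 UMIs or more over both sides. No levels were available for Nps and Npw. None of the 17 was at 2-fold or more on the PVH side or on the ARC side, against 3.36% and 2.68% of all genes. Their median ratio was 1.02. Only Gal and Trh exceeded 20 CPM. Gal, the galanin gene, was at 61.7 CPM (58.2 to 65.3) on the ARC side and 57.1 CPM (53.5 to 60.8) on the PVH side, and no cluster lay below 32.6 CPM. Trh was at 26.1 CPM (23.8 to 28.4) and 34.4 CPM (31.7 to 37.4), and was highest in PVH-side cluster 8 at 105.6 CPM, a cluster in which its receptor gene Trhr was at 34.0 CPM (24.1 to 46.7). The non-neuronal cluster, which should make neither peptide, showed Gal at 68.3 CPM on 6 UMIs and Trh at 45.6 CPM on 4 UMIs, so the Gal and Trh levels of most clusters cannot be told apart from background RNA.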

How the data were processed

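Nuclear RNA and hashtag tags were measured in 1 pooled library of NeuN-sorted mouse nuclei. The deposited matrix holds whole UMI counts per gene and barcode, which the authors made with Cell Ranger and the mm10 build (Cell Ranger 5.0 in the submitters' notes, 4.0.0 in the matrix header). Intron and strand counting are not given in the sources used here.

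Nuclei with 800 to 5000 genes, at most 12000 UMIs and at most 1% mitochondrial UMIs were kept. Hashtags were called with HTODemux of Seurat 5.3.0 in R 4.3.3 at a positive quantile of 0.8, and the 944 nuclei with both hashtags, the only doublets removed, and 2385 with none were left out. Each side was clustered by Leiden (leidenbase 0.1.32, resolution 0.55) on 2000 variable genes, 30 components and 20 neighbours, without the 32 receptor genes. A cluster was named where the first marker and at least 3 markers of exactly 1 list reached 1.5-fold with 3 UMIs or more, the lower bound of the first marker's ratio reached 1.5, and no other class with at least 3 passing markers had more genes among the 10 leading ones. These thresholds, and the clause on other classes that gave the KNDy-like cluster its name, were set after the data were seen. Transmitter groups follow the higher of Slc17a6 and Slc32a1.

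Levels are summed UMI counts per 1000000 UMIs with exact Poisson intervals, and ratios and shares have exact binomial intervals (scipy 1.17.1), which cover counting error only. With 1 library no test was run. Genes were compared between sides with 20 UMIs in all, and a cluster was counted at 2-fold with 10 UMIs. A count of 0 was bounded by 3 counts. For thinned shares each nucleus was drawn down to 1000 UMIs, and 1 PVH-side nucleus below that was left out. Only the step that finds genes at 2-fold or more between the sides was tested on simulated counts. Positions are from GENCODE on GRCm38 and promoters from RefSeq, and protein sequences were not analysed here.

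The receptor genes, ligands and marker lists were chosen with earlier results of these data known. All 32 receptor genes are accounted for, with 50 UMIs on a side as the minimum for a full description and 20 CPM for naming a ligand. Genes below these limits that are named with values were chosen after their values were seen.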

Additional observations from a re-analysis of the deposited data

Results flagged for a closer look

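The 2385 nuclei with no hashtag call entered no comparison, and they held the receptor genes too, at a summed level of 277 CPM (267 to 288), between the 243 CPM of the ARC side and the 289.6 CPM of the PVH side. This is a signal in nuclei that the report does not use. Their median depth was 3926 UMIs, below that of both sides, and 55.1% of them had a UMI of a receptor gene. In the 944 nuclei with both hashtags the summed level was 268 CPM.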

How the results depend on the processing

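No paired analysis was possible because the gene expression and hashtag libraries come from the same nuclei and there is 1 preparation for each side. The summed level of the receptor genes on the PVH side was 276 CPM at a hashtag quantile of 0.99, which keeps 1229 ARC-side and 407 PVH-side nuclei, and 298 CPM after thinning to 1000 UMIs. The count of genes at 2-fold or more on the PVH side was 3 when levels were averaged over nuclei, and the count on the ARC side was 1 after thinning. Genes with a cluster at 2-fold or more numbered 5 on the ARC side and 9 on the PVH side after thinning. With a minimum of 20 UMIs they numbered 10 and 11. Ednra changed direction, with log2 ratios of -0.21 at the quantile of 0.99 and -0.12 after thinning. Without cluster 1 of each side, an alternative chosen after seeing the data, 7 genes were at 2-fold or more on the PVH side and 2 on the ARC side, and 13 and 15 had a leading cluster. Leaving out cluster 1 of each side and PVH-side cluster 3, also chosen after seeing the data, gave 2 ARC-side genes at 2-fold or more in glutamatergic clusters, against 3.08% of all genes. For the other counts of this paragraph the shares of all genes are not given, so their moves cannot be set against a background. The causes of these moves were not tested. Thinning leaves fewer UMIs, the higher minimum asks for more of them in a cluster, and the stricter quantile leaves fewer nuclei on each side. At these depths a gene with few UMIs cannot be shown to be absent.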
